A study of Homo sapiens with 6 samples.

Results

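The ERK pathway output and feedback genes were read as 10 genes of the expression table, chosen by symbol from a list of ERK-induced transcription factors and negative feedback regulators: EGR1, ETV4, ETV5, PHLDA1, DUSP4, DUSP6, SPRY2, SPRY4, SPRED1 and SPRED2. They are 10 of 58735 genes in the table, and each symbol matched 1 row. RNA-seq was carried out in PC9-BrM3, a brain-tropic line obtained from the lung adenocarcinoma line PC9 by repeated passage through mice, in 3 libraries with AKR1B10 knocked down (BrM3-shAKR1B10) and 3 libraries with a control shRNA (BrM3-shNC, whose genotype label reads WT). All 6 libraries came from this 1 line in routine culture with no drug, so the comparison asked how silencing of AKR1B10, an aldo-keto reductase, changes gene expression in these cells. The knockdown libraries carry a single shRNA, so an effect of AKR1B10 loss and an effect of that hairpin cannot be told apart. No label says that the replicates of a group were separate cultures, so p-values measure the spread between these libraries, which may be technical.

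Growth factor receptors such as EGFR, which is mutated and active in PC9 cells, switch on RAS, and RAS starts a relay of kinases from RAF to MEK to ERK. Active ERK enters the nucleus and turns on a set of genes within minutes to hours, among them the transcription factors EGR1, ETV4 and ETV5. The same signal turns on its own brakes: DUSP4 and DUSP6 are phosphatases that remove the activating phosphates from MAP kinases, the Sprouty proteins SPRY2 and SPRY4 act between the receptor and RAF, and the SPRED proteins bring the RAS inactivator NF1 to the membrane. In lung adenocarcinoma the mRNA levels of these genes are commonly used as a readout of the output of the pathway.

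AKR1B10 was read at 108, 107 and 110.2 FPKM (fragments per kilobase of gene, scaled to the size of the library) in the knockdown libraries and at 799, 775 and 772 FPKM in the control libraries, or 13.9% of the control mean. The libraries held 16964504 to 18709028 reads on genes. Control replicate 1 lay farther from the other 2 controls (chi-square per gene 4.88 and 5.42) than these lay from each other (2.62), and the knockdown libraries differed by 2.45 to 2.70, so no 2 libraries of 1 group agreed within sampling noise. Epithelial markers were abundant: 10 markers summed to 3178 to 3264 FPKM in knockdown and 3022 to 3381 FPKM in control libraries, led by keratins 8, 18 and 19. Of the markers of lung lineage, NKX2-1 (0.262 FPKM at most) and SFTPB (0.0398 FPKM at most) were near 0, and NAPSA was at 0.363 to 0.677 FPKM (22 to 43 reads). CEACAM6 was at 9.79 to 10.4 FPKM in knockdown and 30.9 to 35.4 FPKM in control libraries. Summed markers of other cell types were low, with ranges that did not overlap between knockdown and control libraries: 5 fibroblast markers at 1.20 to 1.35 and 2.03 to 2.05 FPKM (COL1A2, DCN and LUM listed at 0 in all 6), 3 endothelial at 2.10 to 2.37 and 1.52 to 1.79, 3 immune at 0.0556 to 0.139 and 0.192 to 0.265, and 5 glial and neuronal at 2.53 to 2.70 and 3.43 to 3.61, nearly all of it MBP. Of the single markers, CEACAM6 (log2 fold change -1.69, adjusted p = 1.03e-05) and COL1A1 (-0.67, adjusted p = 0.00319) were called lower and CDH5 higher (0.65, adjusted p = 0.00390, limma as described next), and their part in the results was not tested.

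Silencing of AKR1B10 went with lower levels of 3 of the 10 genes, EGR1, ETV4 and PHLDA1. The other 7, ETV5 and the DUSP, SPRY and SPRED genes, were not called. EGR1 fell to 33.9% of the control level, ETV4 to 65.0% and PHLDA1 to 67.6%. A call needed an adjusted p under 0.05 (limma on log2(FPKM + 0.1), Benjamini-Hochberg over all genes tested) and an absolute log2 fold change above 0.5. By this rule 3 members were lower and 0 higher, against 7.45% lower and 5.83% higher of the 13150 genes tested. All 10 members passed the filter, a mean of at least 1 FPKM over the 6 libraries. The median log2 fold change was -0.04 over the members and -0.01 over all genes tested. By the adjusted p alone 4 members were lower and 2 higher, against 23.1% and 19.4% of all genes. The ranges of the 2 groups did not overlap for 7 members (4 lower, 3 higher in knockdown). Over all genes tested the share was 54.7% (29.2% lower, 25.5% higher), so the count of separated members is close to the background. In bulk RNA, fewer cells that express a gene and less RNA per cell cannot be told apart. Without control replicate 1 the log2 fold changes of EGR1, ETV4 and PHLDA1 were -1.49, -0.69 and -0.55, and each stayed past both thresholds.

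**Figure D1:**
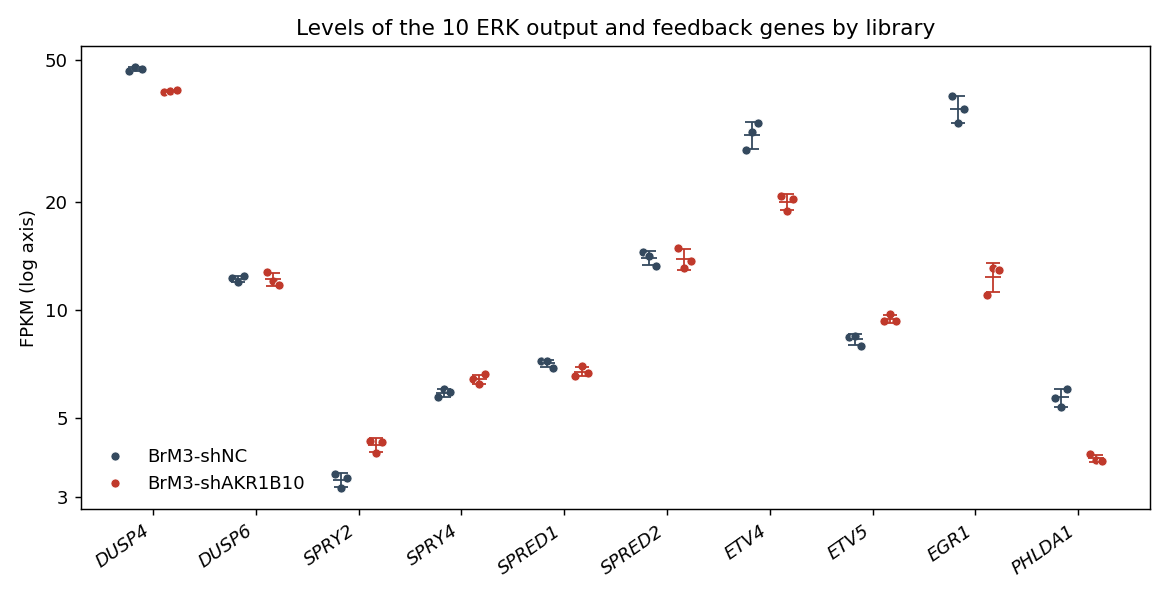
FPKM (log axis) of the 10 genes in each library, BrM3-shNC in grey-blue and BrM3-shAKR1B10 in red; points are libraries, and bars are the mean and SD of 3. EGR1, ETV4, PHLDA1 and DUSP4 sit lower in all 3 knockdown libraries, SPRY2, SPRY4 and ETV5 sit higher, and DUSP6, SPRED1 and SPRED2 overlap.

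The levels of the genes differed by more than an order of magnitude in control cells. FPKM is per length of gene, so levels can be set side by side, with a limit. DUSP6 and PHLDA1 share 1875 and 1332 exon bases with antisense genes. Whether counting used the strand is not known, so the places of these 2 genes in the order are less sure. DUSP4 was the most abundant at 47.3 ± 0.552 FPKM (SD, n = 3), followed by EGR1 (36.5 ± 3.21), ETV4 (30.9 ± 2.72), SPRED2 (14.0 ± 0.615), DUSP6 (12.2 ± 0.224), ETV5 (8.28 ± 0.290), SPRED1 (7.09 ± 0.168), SPRY4 (5.88 ± 0.149), PHLDA1 (5.70 ± 0.326) and SPRY2 (3.35 ± 0.158). Neighbours in this order were separated in all control libraries except EGR1 and ETV4, and SPRY4 and PHLDA1, whose ranges overlapped. Against all genes tested, the mean level of DUSP4 was at percentile 93.2 and that of SPRY2 at percentile 35.2. In knockdown cells EGR1 (12.4 ± 1.16 FPKM) lay below ETV4 (20.1 ± 1.01), and in the same range as DUSP6 (12.2 ± 0.50). The summed level of the 10 genes was 169 to 173 FPKM in control and 129 to 131 FPKM in knockdown libraries. Abundant genes such as EGR1 and ETV4 weigh most in this sum. The median log2 fold change of the 10 was -0.04, and SPRY2, SPRY4 and ETV5 were higher in knockdown libraries. The reads behind a member's value ran from 163 for SPRY2 to 6272 for DUSP4.

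EGR1 encodes a zinc finger transcription factor whose mRNA is made within minutes of ERK activation and is short-lived. It lies on chromosome 5 at 138465490-138469315 (plus strand, GRCh38). Its level was 11.0, 13.2 and 12.9 FPKM in the knockdown libraries and 39.7, 33.3 and 36.6 FPKM in the control libraries. Every control library lay far above every knockdown library. The log2 fold change was -1.55 (SE 0.0886, 95% interval -1.77 to -1.34, adjusted p = 4.84e-05), a control level 2.95 times that of the knockdown. EGR1 stood at rank 45 of 13150 genes ordered from the lowest log2 fold change.

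The promoter of EGR1 is shown because it carries the elements through which ERK signalling is known to reach this gene. CArG boxes bind SRF, which recruits ERK-phosphorylated ETS factors of the ELK family to such elements. The sequence is the 250 bases before the RefSeq start (GRCh38.p14, chr5:138465229-138465478, plus strand), with matches to the CArG box in capitals, read 5′ to 3′, beside the matching window of EGR2, another gene of the same family (the third of 3 RefSeq promoters, chr10:62816367-62816616, minus strand).
EGR1: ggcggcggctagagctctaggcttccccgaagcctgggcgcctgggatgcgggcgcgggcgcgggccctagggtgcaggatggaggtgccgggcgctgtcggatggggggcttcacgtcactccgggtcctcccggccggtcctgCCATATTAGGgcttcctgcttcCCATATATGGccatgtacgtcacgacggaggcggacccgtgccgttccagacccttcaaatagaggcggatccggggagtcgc
EGR2: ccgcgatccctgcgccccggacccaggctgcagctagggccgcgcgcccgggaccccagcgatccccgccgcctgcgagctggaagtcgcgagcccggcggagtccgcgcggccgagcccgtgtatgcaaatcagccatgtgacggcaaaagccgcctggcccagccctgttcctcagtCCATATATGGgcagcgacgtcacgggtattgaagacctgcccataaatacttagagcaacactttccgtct
In EGR1 the boxes CCATATTAGG and CCATATATGG began 105 and 83 bases before the start, and in EGR2 the box CCATATATGG began 71 bases before it. The other 2 RefSeq promoters of EGR2 held no match to the box. RefSeq promoter sequences were matched for 7 of the 10 members (10 promoters of 300 bases, 250 before and 50 after each start). DUSP4, ETV4 and ETV5 had no match in the promoter set used here. EGR1 was the only one of these 10 promoters with a CArG box, which 1.29% of 35116 promoters hold. Among the promoters of the lists described further on, the box was in 3 of 56 of the cascade (RPS6KA2, MKNK2 and SRF), 0 of 26 of other ERK outputs and 1 of 23 of immediate-early genes, that of EGR2. The letters TGACG, the start of a cyclic AMP response element, were in 4 member promoters (24.6% of all promoters), and the full element TGACGTCA, which contains them, was in 0 (1.85%). The EGR site GCGNGGGCG was in 3 (9.43%), the AP-1 site TGANTCA in 1, that of SPRED2 (7.71%), and the ETS letters CCGGAAG in 0 (10.3%). All letters were searched on both strands. A match is a description of letters in a window, and a window with no match says only that those letters are not in it.

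ETV4 and ETV5 encode ETS transcription factors of the PEA3 group, which bind the same DNA core and are usually induced together by ERK. Here they parted. ETV4 (chromosome 17, 43527844-43579620, minus strand) was at 20.9, 19.0 and 20.5 FPKM in knockdown and 28.0, 31.5 and 33.3 FPKM in control libraries, with no overlap. Its log2 fold change was -0.62 (SE 0.0716, 95% interval -0.79 to -0.44, adjusted p = 0.000823). ETV5 (chromosome 3, 186046308-186110318, minus strand) was at 9.32, 9.76 and 9.31 FPKM in knockdown and 8.42, 8.47 and 7.94 FPKM in control libraries. The groups did not overlap, in the opposite direction, and the log2 fold change of 0.19 (SE 0.0438, 95% interval 0.09 to 0.30, adjusted p = 0.0131) passed the adjusted p but not the fold change threshold. The ratio of ETV4 to ETV5 within a library, from which a single scaling factor per library cancels, was 2.24, 1.95 and 2.20 in knockdown and 3.32, 3.72 and 4.20 in control libraries. The log2 ratio differed by -0.81 between groups, with p = 0.10 in a two-sided exact permutation test, the smallest p that 3 against 3 libraries allow (adjusted p = 0.133 over 4 ratios, permutation).

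PHLDA1 encodes a pleckstrin homology-like protein induced by growth factor signalling, and lies on chromosome 12 at 76025447-76033932 (minus strand). It was at 3.95, 3.82 and 3.79 FPKM in knockdown and 5.69, 5.37 and 6.02 FPKM in control libraries, so that every knockdown library lay below every control. The log2 fold change was -0.55 (SE 0.0569, 95% interval -0.69 to -0.41, adjusted p = 0.000515). The interval includes the fold change threshold, and with a pseudocount of 1 FPKM the value was -0.46, which is no longer a call.

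**Figure D2:**
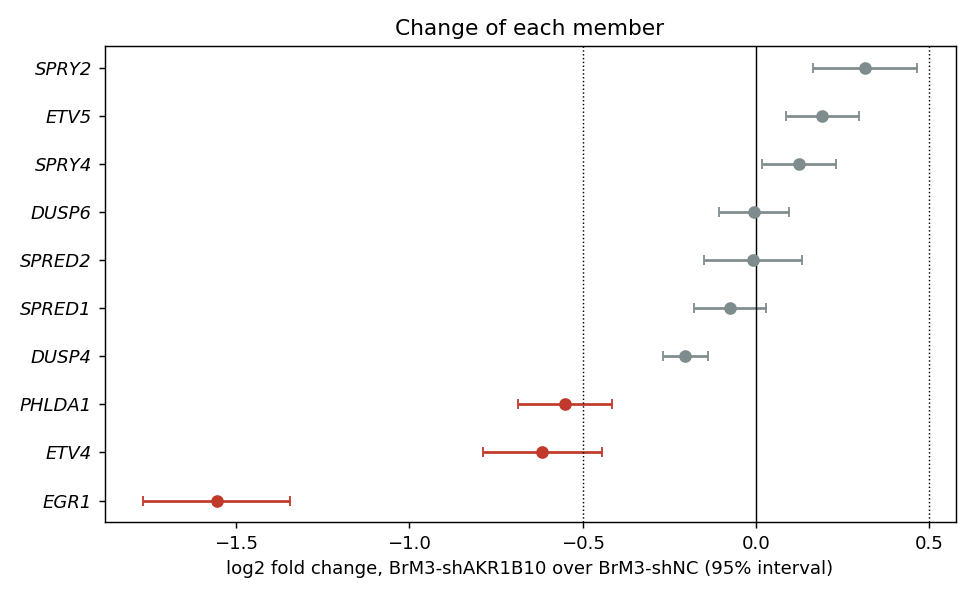
Log2 fold change (x axis, knockdown over control) of each of the 10 genes with its 95% interval from limma; red points are called, grey points are not, and dotted lines mark the threshold of 0.5. EGR1, at -1.55, stands apart from the other 9 genes, whose values run from -0.62 to 0.31.

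The phosphatases of the loop changed little. DUSP4, a nuclear phosphatase on chromosome 8, was at 40.8, 41.0 and 41.4 FPKM in knockdown and 46.7, 47.8 and 47.4 FPKM in control libraries. Its replicates were the tightest of the 10 genes (coefficient of variation 0.730% and 1.17%), the groups did not overlap, and the log2 fold change of -0.20 (SE 0.0273, 95% interval -0.27 to -0.14, adjusted p = 0.00149) passed the adjusted p without reaching the fold change threshold. DUSP6, the cytoplasmic phosphatase specific for ERK (chromosome 12, 89347232-89353271, minus strand), was at 12.8, 12.1 and 11.8 FPKM in knockdown and 12.3, 12.0 and 12.4 FPKM in control libraries. These ranges overlapped, and the log2 fold change was -0.0049 (adjusted p = 0.935). Its 95% interval ran from a change of -7.07% to one of 6.88% relative to control, so a difference of the size seen for EGR1, ETV4 or PHLDA1 lies outside it. The ratio of DUSP4 to DUSP6 was 3.37 ± 0.160 in knockdown and 3.87 ± 0.104 in control libraries (SD, n = 3 each, exact permutation p = 0.10, adjusted p = 0.133).

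Neither SPRY2 nor SPRY4 was lower in knockdown cells. SPRY2 (chromosome 13, 80335976-80340951, minus strand) was at 4.30, 3.97 and 4.29 FPKM in knockdown and 3.48, 3.17 and 3.39 FPKM in control libraries. All knockdown libraries lay above all controls, and the log2 fold change of 0.31 (SE 0.0623, 95% interval 0.17 to 0.46, adjusted p = 0.00748), the highest of the 10 genes, passed the adjusted p but not the fold change threshold. SPRY4 (chromosome 5, 142310427-142326455, minus strand) was at 6.41, 6.23 and 6.61 FPKM in knockdown and 5.72, 6.02 and 5.89 FPKM in control libraries. Its groups also did not overlap, with a log2 fold change of 0.12 (SE 0.0448, 95% interval 0.02 to 0.23) that did not pass the adjusted p (0.0644). The ratio of SPRY2 to SPRY4 was 0.653 ± 0.0171 in knockdown and 0.570 ± 0.0408 in control libraries (SD, n = 3 each, exact permutation p = 0.10, adjusted p = 0.133). SPRY1, a Sprouty gene of the list of other ERK outputs, was at 3.18, 3.06 and 2.75 FPKM in knockdown and 3.74, 4.13 and 3.59 FPKM in control libraries. Its groups did not overlap, in the other direction, and its log2 fold change of -0.34 (SE 0.0827, adjusted p = 0.0164) passed the adjusted p but not the fold change threshold.

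The SPRED genes did not pass the test. SPRED1 (chromosome 15, 38252326-38357249, plus strand) was at 6.55, 6.95 and 6.68 FPKM in knockdown and 7.19, 7.19 and 6.90 FPKM in control libraries. The ranges overlapped at their ends, and the log2 fold change was -0.08 (SE 0.0435, 95% interval -0.18 to 0.03, adjusted p = 0.208). SPRED2 (chromosome 2, 65310851-65432637, minus strand) was at 14.9, 13.1 and 13.7 FPKM in knockdown and 14.5, 14.1 and 13.3 FPKM in control libraries. These ranges were nearly the same, and the 95% interval of the log2 fold change ran from -0.15 to 0.13 (adjusted p = 0.915). Leaving out 1 library at a time, the log2 fold change ran from -0.06 to 0.03 for SPRED2 and from -0.04 to 0.02 for DUSP6, so neither is given a direction. The ratio of SPRED1 to SPRED2 was 0.486 ± 0.0458 in knockdown and 0.508 ± 0.0115 in control libraries (SD, n = 3 each, exact permutation p = 0.6).

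**Figure D3:**
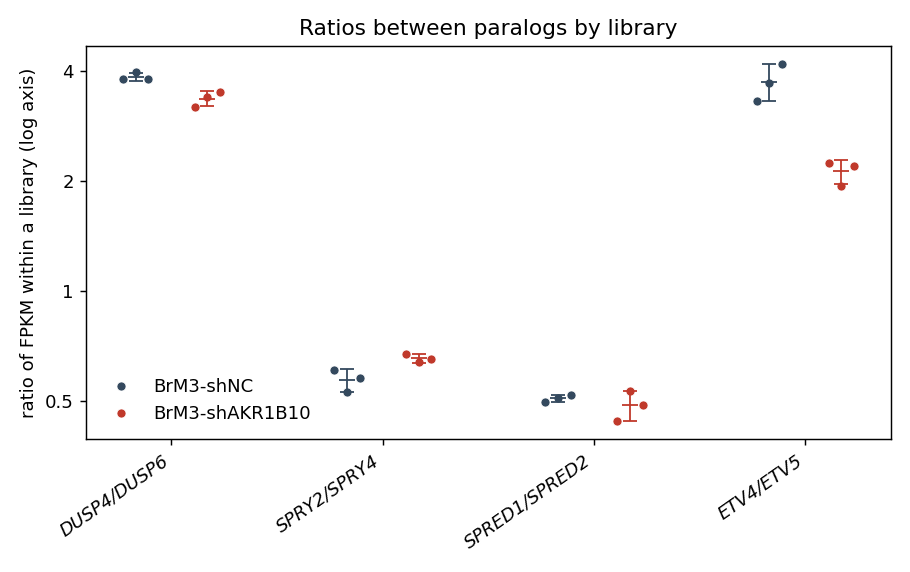
Ratio of the FPKM of paralogs within each library (log axis), with the mean and SD of 3 libraries per group. The ratio of ETV4 to ETV5 is 1.95 to 2.24 in knockdown and 3.32 to 4.20 in control libraries, a wider gap than for the other pairs, and that of SPRED1 to SPRED2 overlaps.

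The cascade that leads to ERK was read next, as 43 adaptors, RAS proteins, kinases, their regulators and direct effectors. Of these 38 were tested, 0 were called lower and 1 was called higher, against 7.45% and 5.83% of all genes tested. That gene was RPS6KA2, which encodes a kinase of the RSK family activated by ERK: it was at 3.46, 3.72 and 3.82 FPKM in knockdown and 2.38, 2.22 and 2.52 FPKM in control libraries. Its log2 fold change was 0.61 (SE 0.0743, adjusted p = 0.00102), and 0.47, under the threshold, with a pseudocount of 1. The RSK genes RPS6KA1 and RPS6KA3 stood on the other side, at -0.34 (adjusted p = 0.00138) and -0.35 (adjusted p = 0.000469), within the fold change threshold and with no overlap between groups. By the adjusted p alone 13 were lower and 9 higher (23.1% and 19.4% of all genes), the median log2 fold change was -0.02, and the groups did not overlap for 24 of the 38, a share near the 54.7% over all genes. PTPN11, which encodes the phosphatase SHP2 that carries receptor signals to RAS, had the lowest log2 fold change (-0.44, adjusted p = 0.000426). MAPK3, a kinase gene of the cascade, stood at -0.34, and the MEK gene MAP2K1 at -0.27, each past the adjusted p and within the fold change threshold. PEA15, which holds ERK in the cytoplasm, stood at 0.43 (adjusted p = 0.000192), also within it. These are mRNA levels, and phosphorylation of ERK was not measured in these files.

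A further 19 ERK-induced genes and feedback regulators gave 16 tested genes, with a median log2 fold change of -0.31. Of these 5 were called lower and 0 higher (7.45% and 5.83% of all genes tested). Leaving out 1 library at a time, 3 to 6 were lower and 0 to 2 higher. The groups did not overlap for 13 of the 16, against 54.7% of all genes. The members and the lists were chosen with earlier results of these data known, so each count set beside all genes is a description. IER3, an early response gene that affects survival, fell from 98.8 ± 2.95 to 52.7 ± 0.986 FPKM (SD, n = 3 each), and its log2 fold change was -0.91 (SE 0.0340). FOSL1, which encodes the AP-1 subunit FRA1, was at 11.4, 13.0 and 12.5 FPKM in knockdown and 22.4, 20.7 and 23.6 FPKM in control libraries. Its log2 fold change was -0.85 (SE 0.0682, adjusted p = 0.000182). MYC, the growth regulator, fell from 39.0 ± 0.575 to 25.4 ± 0.465 FPKM (log2 fold change -0.62, SE 0.0306). HBEGF, which encodes a ligand of EGFR, was at 1.46, 2.18 and 2.52 FPKM in knockdown and 3.56, 2.76 and 3.23 FPKM in control libraries. Its log2 fold change of -0.63 (SE 0.201, adjusted p = 0.0425) lost its call under 10 of 16 alternatives, among them leaving out either of knockdown replicates 1 and 2 or any 1 control library (adjusted p 0.0533 to 0.114). The value was -0.42 without knockdown replicate 1, and ran from -0.79 to -0.42 leaving out 1 library at a time. PLAUR, the urokinase receptor gene, stood at -0.55 (SE 0.117, adjusted p = 0.0102). It stood at -0.46 without knockdown replicate 2, -0.447 without control replicate 2 and -0.450 with a pseudocount of 1, in each case no longer a call. The highest value was that of EPHA2, a receptor tyrosine kinase gene, at 0.48 (SE 0.0363, adjusted p = 0.000144), under the threshold. Past the adjusted p but within the fold change threshold, 3 genes of this list were lower and 2 higher. The lower ones were ERRFI1 (-0.33), LIF (-0.497) and SPRY1, and the higher ones EPHA2 and EPHA4 (0.19). CCND1, the cyclin D1 gene, stood at 0.09 and did not pass the test.

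**Figure D4:**
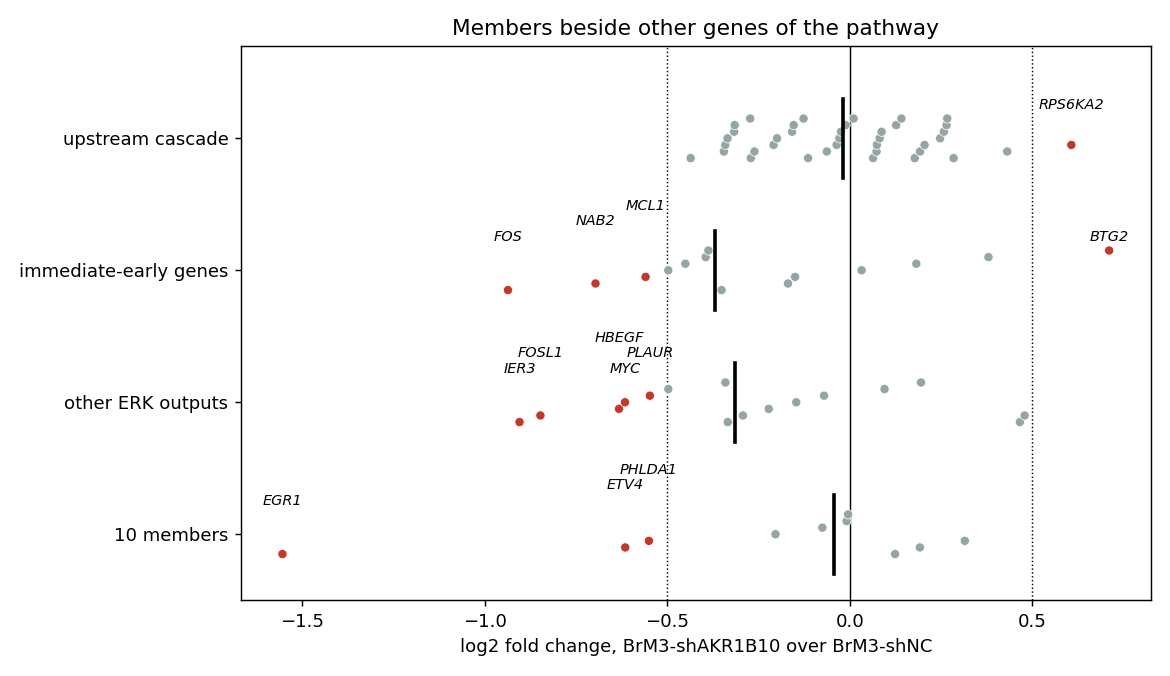
Log2 fold change (x axis) of each tested gene in the 4 lists, 10 members, 16 other ERK outputs, 14 immediate-early genes and 38 cascade genes; red points are called and named, the thick bar is the median of a list, and dotted lines mark 0.5. The medians are -0.04, -0.31, -0.37 and -0.02.

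Immediate-early genes, which are switched on without new protein synthesis, made a list of 20 with the EGR cofactors NAB1 and NAB2. Of these 14 were tested, 3 were called lower and 1 higher (7.45% and 5.83% of all genes tested), with a median log2 fold change of -0.37. The groups did not overlap for 10 of them, against 54.7% of all genes. FOS, a partner of JUN in AP-1, was at 4.51, 4.29 and 3.71 FPKM in knockdown and 8.58, 7.56 and 8.04 FPKM in control libraries (log2 fold change -0.94, SE 0.0849, adjusted p = 0.000299). MCL1, an antiapoptotic BCL2 family gene, fell from 63.4 ± 0.789 to 43.0 ± 0.969 FPKM. BTG2, an antiproliferative gene also induced by p53, was the one called higher, at 13.7, 13.8 and 13.6 FPKM in knockdown and 8.38, 8.82 and 7.83 FPKM in control libraries (log2 fold change 0.71, SE 0.0499, adjusted p = 0.000107). JUN stood at 0.38, past the adjusted p and within the fold change threshold, so the list did not move as one.

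The other members of the EGR family were too low for the filter and were named after their values were seen. EGR2 was at 0.199, 0.165 and 0.168 FPKM in knockdown and 0.739, 0.753 and 0.520 FPKM in control libraries, from 11 to 13 reads against 35 to 50. EGR3 was at 0.0699, 0.0799 and 0.151 FPKM in knockdown and 0.370, 0.475 and 0.327 FPKM in control libraries, from 6 to 13 reads against 29 to 39. EGR4, at 8 to 15 reads, overlapped between groups. With no filter on low values, the log2 fold changes of EGR2 and EGR3 were -1.46 (SE 0.255, adjusted p = 0.0126) and -1.30 (SE 0.296, adjusted p = 0.0323), past both thresholds. On that scale the pseudocount of 0.1 FPKM understates a change at such levels. In the same fit FOSB, at 1.11 to 1.16 FPKM in knockdown and 0.559 to 0.713 FPKM in control libraries, was called higher (log2 fold change 0.75, SE 0.155, adjusted p = 0.0229). So was SPRY3, a Sprouty gene of the list of other ERK outputs, at 1.13 to 1.36 FPKM in knockdown and 0.474 to 0.804 FPKM in control libraries (log2 fold change 0.87, SE 0.211, adjusted p = 0.0408). NAB2, a corepressor of EGR proteins that EGR1 itself induces, was at 11.9, 10.6 and 9.72 FPKM in knockdown and 17.1, 17.4 and 17.8 FPKM in control libraries (log2 fold change -0.70, SE 0.0729, adjusted p = 0.000537). NAB1, its paralog, stood at -0.50 (SE 0.0799, adjusted p = 0.00319), just under the threshold.

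**Figure D5:**
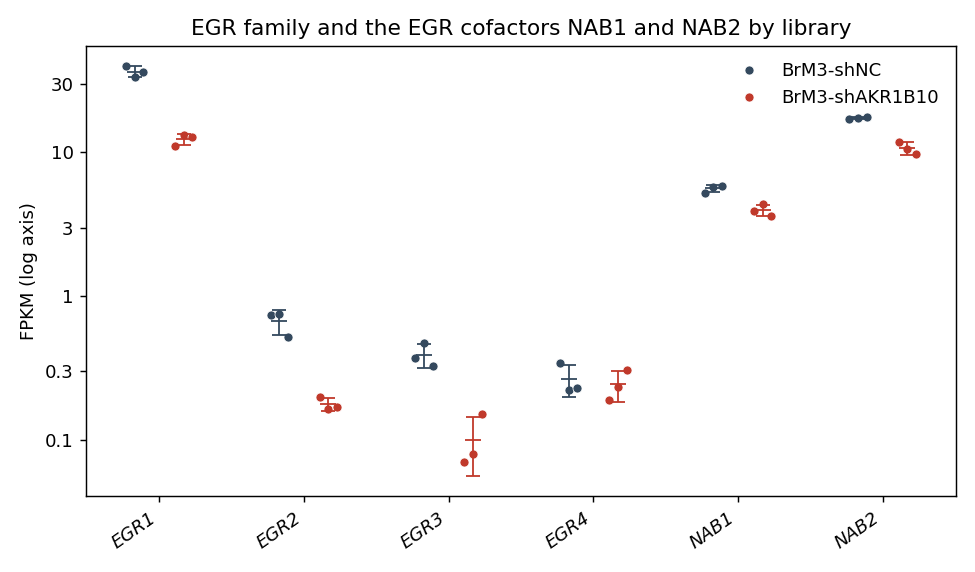
FPKM (log axis) of the 4 EGR genes and the cofactors NAB1 and NAB2 by library, with the mean and SD of 3 per group. EGR1, EGR2, EGR3, NAB1 and NAB2 lie lower in all 3 knockdown libraries than in any control, and EGR4 overlaps; EGR2, EGR3 and EGR4 rest on 6 to 50 reads.

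The genes whose pattern over the 6 libraries was most like that of EGR1 were HNRNPM, RBM12, FADS1, HSD17B11 and HNMT (Pearson r of log2(FPKM + 0.1) from 0.9990 to 0.9993). All 5 had lower means in knockdown cells, and 3 of them were called lower (FADS1, HSD17B11 and HNMT, log2 fold changes -0.57, -1.31 and -0.88). With 3 libraries in each of 2 groups such a correlation mostly describes the group difference, and 275 of 13149 other tested genes reached an r of 0.99 with EGR1.

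Annotated neighbours were checked for shared reads, since the sources used here do not say whether counting used the strand. EGR1, DUSP4, SPRY2 and SPRED1 overlap no other gene of the table. ETV4 shares 68 exon bases with DHX8 on the opposite strand, which was at 4.29 to 5.17 FPKM. ETV5 shares 164 exon bases with DGKG on the same strand (1.34 to 1.71 FPKM). DUSP6 shares 1875 exon bases with the antisense gene AC024909.2 (0.131 to 0.475 FPKM). PHLDA1 shares 553 and 779 with the antisense genes AC011611.3 (0.289 FPKM at most) and AC011611.4 (listed at 0). The other overlapping genes, 3 at SPRY4, 2 at ETV5 and 1 at SPRED2, share 0 exon bases with them. Reads of a gene and its antisense partner cannot be told apart without strand.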

How the data were processed

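RNA was sequenced in 6 libraries of PC9-BrM3 cells, 3 per group, with groups and replicate numbers taken from the sample labels. Per the study's methods, the authors aligned reads with HISAT2 2.0.5, counted them per gene with featureCounts 1.5.0-p3 and deposited FPKM for 58735 genes, with gene lengths and without pooling replicates. The genome build is not given in the sources used here. Every gene of the table has the same identifier and position in GENCODE 29 (GRCh38). Dividing out length and library size gave whole reads (within 0.1) for 100% of values, 16964504 to 18709028 per library, so that 3 reads, the floor for detection, are 0.163 to 0.177 FPKM for a gene of 1000 bases, a limit for counting error alone.

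The limma package (3.58.1, in R 4.3.3) was fitted to log2(FPKM + 0.1) of all 6 libraries with lmFit and a trended eBayes step. The 13150 genes whose FPKM averaged 1 or more entered, and p-values were adjusted over all of them by the Benjamini-Hochberg method. The pseudocount makes fold changes of low genes too small. Calls needed both an adjusted p below 0.05 and a log2 fold change beyond 0.5 in either direction. The scripts were tested on simulated data. Ratios of paralogs were compared with exact permutation tests. The members and lists were chosen with earlier results of these data known. All members were named, and from each list the called genes and the extremes. MAPK3, MAP2K1, PEA15, CCND1, ERRFI1, LIF, EPHA4, JUN, NAB1, FOSB, SPRY1, SPRY3, RPS6KA1, RPS6KA3 and EGR2 to EGR4 were named after their values were seen. Promoters came from RefSeq (GRCh38.p14). Alternatives were another pseudocount, filter, scaling, threshold or fit (voom on the recovered reads), the replicate block, and leaving out each library.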

Additional observations from a re-analysis of the deposited data

How the results depend on the processing

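Leaving out 1 library at a time, the 3 lower and 0 higher calls among the members held throughout (3 to 3 and 0 to 0), and EGR1 and ETV4 kept their calls under every alternative run at the threshold of 0.5, with log2 fold changes of -1.62 to -1.48 and -0.69 to -0.56. PHLDA1 lost its call with a pseudocount of 1. A filter at a mean of 5 FPKM, which PHLDA1 does not pass, left 2 members lower. An absolute log2 fold change above 1 left 1 member lower, 0 cascade genes higher, 0 other outputs lower, and 0 immediate-early genes lower or higher. With no fold change threshold, 2 members, 9 cascade genes, 2 other outputs and 2 immediate-early genes were higher, and 13 cascade genes, 8 other outputs and 8 immediate-early genes were lower. A pseudocount of 1, or a filter at a mean of 5 FPKM, gave 0 cascade genes higher and 3 other outputs lower. With no filter 1 other output was higher, and 5 immediate-early genes were lower and 2 higher. TPM gave 2 other outputs and 2 immediate-early genes higher, and quantile scaling 1 other output. Leave-one-out counts of other outputs ran from 3 to 6 lower and 0 to 2 higher; the count was 3 without knockdown replicate 2 or control replicate 2, and 2 were higher without control replicate 3. The cause of these shifts was not tested.

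TPM and quantile scaling moved the median of all genes from -0.01 to 0.04 and 0.0055, and values near 0 turned sign with such shifts: DUSP6 stood at 0.0320 with TPM and 0.0494 with quantile scaling, and ran from -0.0371 to 0.0196 leaving out 1 library. The same values for SPRED2 were 0.0279, 0.0429, and -0.0600 to 0.0327. The log2 ratio of SPRED1 to SPRED2 ran from -0.134 to 0.00286, turning without knockdown replicate 1. Over all genes, 980 lower and 766 higher calls became 708 and 497 with a pseudocount of 1, 532 and 290 with the filter at 5 FPKM, and 1012 and 1138 with TPM, where the filter passed 17336 genes in place of 13150.

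Labels share replicate numbers, but the deviations of same-numbered libraries did not go together (correlations -0.0155, 0.00388 and 0.00383). With the replicate block, 3 members were lower and 0 higher, EGR1 stood at -1.55 (adjusted p = 0.00172, limma), 4 other outputs were lower with HBEGF lost (adjusted p = 0.0762), and no other called member or called gene of the 3 pathway lists changed its call. Values with the block are not given here for the other genes named. Paired sign flips of the 4 ratios gave exact p of 0.25, 0.25, 0.5 and 0.25, where 0.25 is the smallest possible.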
